A study of Mus musculus with 2 samples.

Results

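Dicer1, Drosha, Dgcr8, Xpo5, Tarbp2, Prkra, Ddx5 and Ddx17 make the core of the pathway that turns microRNA transcripts into mature microRNAs. These 8 genes were found by exact symbol among the 23227 symbols of the authors' deposited table of polyA RNA, and all 8 were present and passed the filter on low values. They were compared between Dicer knockout (KO, Dicer -/-) and Dicer wild-type (WT, Dicer f/f) cells, adult murine mesenchymal stem cells also labelled as fibroblasts. The lines were immortalized and monoclonal, so a genotype is a single clone, and differences between clones cannot be told apart from loss of Dicer. The WT line carries floxed, undeleted alleles. The labels do not say which part of Dicer1 was removed, when, or by which Cre. All cells were grown in Alpha-MEM with serum and lysed before confluence.

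MicroRNAs are made in steps. In the nucleus the Microprocessor, which pairs the RNase III enzyme Drosha with the double-stranded RNA binding protein Dgcr8, cuts a hairpin out of the primary transcript. The DEAD-box helicases Ddx5 and Ddx17 assist on some transcripts. Exportin-5 (Xpo5) carries the hairpin to the cytoplasm with Ran-GTP, and Dicer cuts off its loop with Tarbp2 or Prkra as partner, which leaves the duplex that Argonaute loads. Cells without Dicer keep every step before the last cut.

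Both means of the table were averages over 2 libraries, and the whole read numbers of all 4 libraries could be recovered from them. They held between 14135422 and 15718369 reads in genes and detected 15370 to 15705 genes. They are called the deeper and the shallower KO or WT library after their totals. The labels list 1 sample per genotype and do not say whether these libraries came from separate cultures, so tests between them measure only a spread that may be technical. Of the 12 mesenchymal markers 11 passed the filter and Thy1 had 0 reads in all 4 libraries, which allows up to 2.76 to 3.36 normalised reads. Their summed level was 107251 to 132083 normalised reads in KO and 176455 to 215938 in WT. Much of this difference came from Col1a1 (means of 17828 in KO and 41238 in WT) and Col1a2 (37792 and 77682). Ratios of KO over WT were above 1 for Pdgfrb, Nt5e, Cd44, Ly6a and Vcam1. They were below 1 for Pdgfra, Eng, Itgb1, Col1a1, Col1a2 and Vim. Vcam1 was called higher, and Col1a1 and Col1a2 were called lower, beside 17.5% of all tested genes called. None of the 10 markers of haematopoietic, endothelial, epithelial and pluripotent cells passed the filter. Their summed levels were 2.76 to 2.99 in KO and 14.6 to 25.1 in WT for the haematopoietic list, and 12.9 to 15.9 in KO and 6.75 to 10.1 in WT for the endothelial list. They were 0 to 0.92 in KO and 1.93 to 4.48 in WT for the epithelial list, and 6.44 to 6.97 in KO and 4.82 to 5.61 in WT for the pluripotent list. Cd34 made up most of the haematopoietic sum in WT, with 1.84 and 0.995 normalised reads in KO and 23.1 and 13.5 in WT. Pecam1 went the other way, with 3.68 and 9.95 in KO and 2.89 and 1.12 in WT. Epcam had 0 reads in all 4 libraries, and Ptprc, Itgam, Cdh1 and Pou5f1 stayed at or below 4.48 normalised reads in each. Their part in the results was not tested. Fewer cells with a transcript and less of it per cell cannot be told apart in such bulk libraries.

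The Dicer1 message itself holds sequence complementary to a microRNA. The let-7 family is abundant in differentiated cells, and a match to its seed (bases 2 to 8, in capitals) was searched as CTACCTC on the sense strand of coding sequences and 3' UTRs. The mature sequence is from RefSeq (GRCm38.p6), and the sites are from GENCODE M21 transcripts on GRCm38, in capitals within their neighbouring bases. They are shown because the targeted gene holds 4 of them.
let-7a-5p (chr13:48538239-48538260, minus strand): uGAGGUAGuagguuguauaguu
Dicer1 coding site 1 (chr12:104706559-104706581, minus strand): tcagcctactgtgttCTACCTCt
Dicer1 coding site 2 (chr12:104702804-104702826, minus strand): tacctgtacaaccaaCTACCTCa
Dicer1 coding site 3 (chr12:104702696-104702718, minus strand): ggaacgctaacacatCTACCTCa
Dicer1 coding site 4 (chr12:104694696-104694718, minus strand): agatgcgattttggaCTACCTCa
All 4 lie in the coding sequence of 5721 bases, starting at its positions 2605, 3611, 3719 and 5091, and none lies in the 3' UTR of 3851 bases. Of 21745 genes with a coding sequence, 12.8% held at least 1 such match and 16 (0.0736%) held 4 or more. Among the 529 coding sequences at least as long as that of Dicer1, 11 (2.08%) did. Xpo5 held 2 coding matches, and Tarbp2 held 1 in its 3' UTR, where 8.98% of 20911 genes have one. These matches are descriptions of sequence, not measured sites.

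Dicer1, which encodes the enzyme removed in KO, was the targeted gene. It had 573 and 557 normalised reads in the deeper and the shallower KO library, against 804 and 943 in the WT libraries. The 2 KO values were below the 2 WT values, with the KO libraries 1.03-fold and the WT libraries 1.17-fold apart. The ratio of the authors' means was 0.647, with a 95% exact (Clopper-Pearson) counting interval from 0.60 to 0.698. Such an interval covers the counting of reads only, not the spread between libraries, and the reads carry no molecular identifiers. Of the 11710 genes with a mean of at least 20 normalised reads, 16.4% had a lower ratio. A gene was called where its ratio was at least 2 or at most 0.5 and the interval excluded 1, and Dicer1 was not called. The authors' deposited table gave it an adjusted p of 0.497. With limma on the 4 libraries, the log2 difference was -0.62 ± 0.19 (SE) with a 95% interval from -1.13 to -0.11, unadjusted p = 0.0275 and adjusted p = 0.137. An exact two-sided permutation test of 2 against 2 libraries cannot go below p = 0.333, which is the value it gave. Counts per gene do not separate the deleted part from the remaining transcript, so 565 normalised reads in KO say nothing on intact Dicer1 RNA.

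None of the 8 genes was called by that rule, where 17.5% of all tested genes were (8.92% higher and 8.56% lower). Their median log2 ratio was 0.06, against -0.01 over all tested genes. The median size of the difference regardless of sign was 0.14 on the log2 scale, against 0.40 over all tested genes. This background was not matched for level. The means of the 8 lay above those of 30.0% (Prkra) to 99.3% (Ddx5) of tested genes. At a minimum mean of 100 normalised reads, 13.8% of genes were called. The KO values were both above the WT values for 3 of the 8 (Drosha, Tarbp2 and Ddx5), as for 30.4% of all tested genes. They were both below for 1 (Dicer1), as for 28.8% of tested genes. The other 4 overlapped between genotypes. Under a 1.5-fold rule Tarbp2 was called higher and Dicer1 lower, 2 of 8, where 35.2% of tested genes were called (17.3% higher and 17.9% lower). No adjusted p of the 8 passed 0.1 in the authors' deposited table, which called 10.9% of tested genes, and limma called 0 of 8 at an adjusted p of 0.05, against 7.2% of tested genes. A limma fit blocked on the rank of the library total, chosen after seeing the data, also called 0 of 8, against 22.4% of tested genes. At an unadjusted p under 0.05 limma counted 2 of 8, Dicer1 and Tarbp2, against 27% of tested genes.

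**Figure D1:**
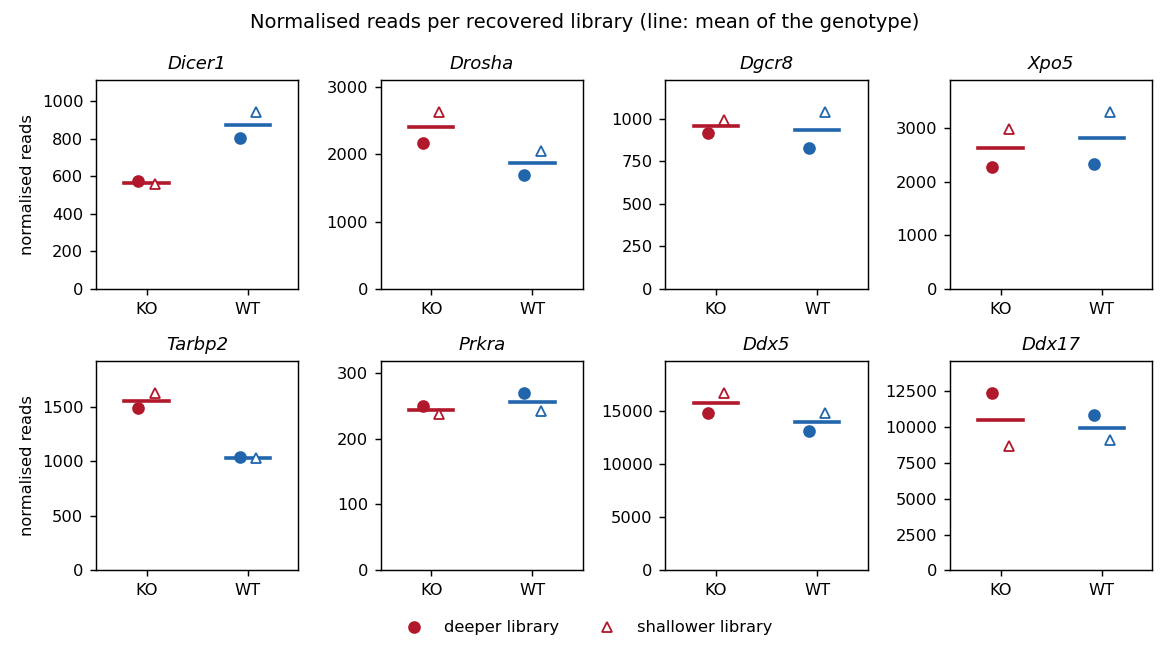
Normalised reads of the 8 genes (vertical axes, each from 0) in each recovered library, with KO left of WT, filled circles for the deeper and open triangles for the shallower library, and a line at the genotype's mean. Dicer1 (KO 573 and 557, WT 804 and 943) and Tarbp2 (KO 1486 and 1624, WT 1036 and 1026) show the clearest gaps between genotypes, in opposite directions.

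Neither gene of the Microprocessor pair was called. Drosha, the nuclear RNase III, had 2172 and 2635 normalised reads in the deeper and the shallower KO library, against 1687 and 2046 in WT. The KO values were above the WT values, but the libraries of each genotype were 1.21-fold apart. The ratio was 1.29 (counting interval 1.23 to 1.34), and it was 1.29 in the deeper and 1.29 in the shallower libraries when these were compared with each other. limma gave a log2 difference of 0.36 (95% interval -0.23 to 0.96, adjusted p = 0.354). Dgcr8, the RNA-binding partner, had 916 and 993 normalised reads in KO, against 824 and 1040 in WT. The KO values lay between the WT values. Its ratio was 1.02 (0.960 to 1.09), with a limma log2 difference of 0.04 (95% interval -0.53 to 0.61, adjusted p = 0.921). Dgcr8 shares 825 exon bases with Trmt2a, a tRNA methyltransferase gene on the opposite strand, and the labels do not say that counting used strand. It also shares 327 exon bases with the protein-coding gene model Gm49776 on the same strand, which stranded counting would not separate. Trmt2a had 754 and 850 normalised reads in KO and 856 and 895 in WT.

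The Dgcr8 message carries hairpins that the Microprocessor can cut, a known route by which Drosha lowers its own partner. One of them, in the coding sequence, is the Mir1306 hairpin. It is shown as a part of a measured message on which the other gene's product can act. The sequence is from RefSeq (GRCm38.p6), with both mature arms in capitals.
Mir1306 hairpin (chr16:18284239-18284317, minus strand): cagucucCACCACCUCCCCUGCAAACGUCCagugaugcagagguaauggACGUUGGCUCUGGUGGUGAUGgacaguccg
The table's own row for Mir1306 had 0 reads in all 4 libraries. All 79 bases of the hairpin lie in Dgcr8 exons on the same strand, and how shared reads were assigned is not given. The 0 is thus no measure of the hairpin. Within a library, there were 0.422 and 0.377 Dgcr8 reads per Drosha read in the deeper and the shallower KO library, against 0.489 and 0.508 in WT. Such a ratio within a library does not depend on how libraries are scaled. The KO values were below the WT values, and the KO mean was 0.801 of the WT mean. Dgcr8 itself had a KO over WT ratio of 1.02, and Drosha had 1.29. Cutting of the Dgcr8 message was not measured.

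Export was served by a gene whose libraries spread widely. Xpo5 had 2274 and 2980 normalised reads in the deeper and the shallower KO library, against 2338 and 3311 in WT. The deeper library of each genotype was the lower, by 1.31-fold in KO and 1.42-fold in WT, and the genotypes overlapped. The ratio was 0.930 (counting interval 0.896 to 0.966), and 0.973 between the deeper and 0.900 between the shallower libraries. Although the counting interval excluded 1, the spread between libraries was larger than the difference, with a limma log2 difference of -0.10 (95% interval -0.85 to 0.66, adjusted p = 0.858). Reads of Drosha per read of Xpo5 were 0.955 and 0.884 in KO, against 0.722 and 0.618 in WT.

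Neither partner of Dicer was called, and their ratios lay on different sides of 1. Tarbp2, which holds Dicer and its substrate together and helps choose the product, had 1486 and 1624 normalised reads in the deeper and the shallower KO library, against 1036 and 1026 in WT. The WT libraries lay within 1.01-fold of each other, and both KO libraries lay well above them. The ratio was 1.51 (counting interval 1.43 to 1.60), and 17.1% of tested genes had a higher one. limma gave a log2 difference of 0.59 ± 0.18 (SE), 95% interval 0.11 to 1.07, unadjusted p = 0.0261 and adjusted p = 0.134, and the authors' deposited table gave an adjusted p of 0.515. Prkra, a paralogue of Tarbp2 that also activates the kinase Eif2ak2, had 249 and 237 normalised reads in KO, against 269 and 242 in WT. The genotypes overlapped, with a ratio of 0.951 (0.839 to 1.08) and a limma log2 interval from -0.56 to 0.42 (adjusted p = 0.837). Prkra had the fewest reads of the 8, between 216 and 279 per library, and so the widest counting interval in relation to its ratio.

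Of the 7 pairs computed, Dicer1 reads per Tarbp2 read differed most between the genotypes. There were 0.386 and 0.343 Dicer1 reads per Tarbp2 read in the deeper and the shallower KO library, against 0.776 and 0.919 in WT. The KO mean was 0.430 of the WT mean, and the libraries were far apart. For Dicer1 per Drosha read, the values were 0.264 and 0.211 in KO, against 0.477 and 0.461 in WT, a KO mean of 0.507 of the WT mean. Dicer1 per Xpo5 read was 0.252 and 0.187 in KO, against 0.344 and 0.285 in WT. Prkra per Tarbp2 read was 0.168 and 0.146 in KO, against 0.260 and 0.236 in WT. These pairs share genes, so they are descriptions. With 2 libraries a genotype, an exact two-sided permutation test of them cannot reach p under 0.333. Dicer1 and Tarbp2 had KO over WT ratios of 0.647 and 1.51, the largest differences in each direction among the core genes. The wide gap of their pair follows from these ratios and is not a separate result. Dicer1 reads in KO say nothing on intact Dicer1 RNA, so the pair does not measure Dicer against its partner. How often other gene pairs separate the genotypes was not tested.

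**Figure D2:**
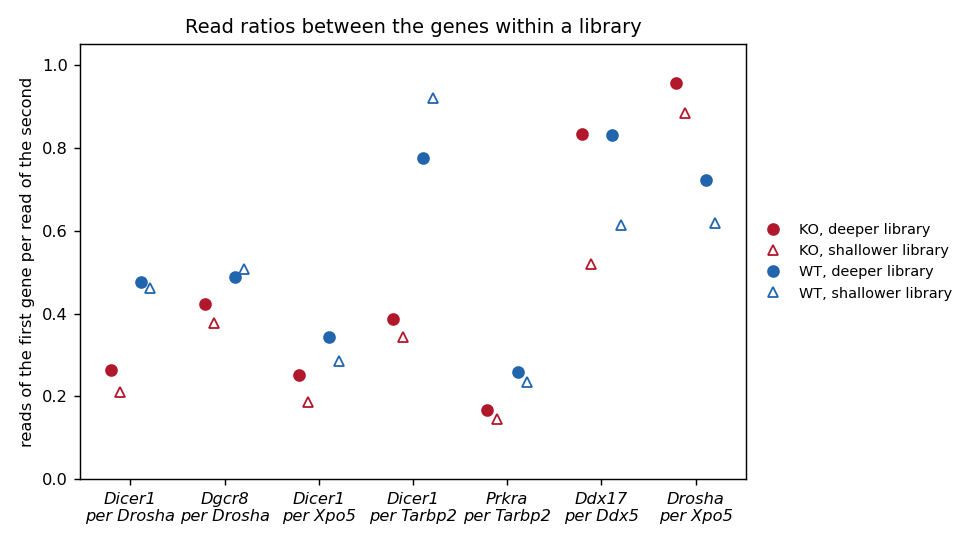
Reads of the first gene per read of the second within each library (vertical axis), for 7 pairs, with KO in red left of WT in blue, circles for the deeper and triangles for the shallower library. The gap between genotypes is widest for Dicer1 per Tarbp2 (KO 0.386 and 0.343, WT 0.776 and 0.919), and the genotypes overlap for Ddx17 per Ddx5; pairs share genes.

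The helicases were the most abundant of the 8. Ddx5 (p68) had 14821 and 16646 normalised reads in the deeper and the shallower KO library, against 13056 and 14781 in WT. The KO values were above the WT values, the lower of them by little. The ratio was 1.13 (counting interval 1.11 to 1.15), with a limma log2 difference of 0.18 (95% interval -0.34 to 0.69, adjusted p = 0.599). Ddx17 (p72), its paralogue, had 12358 and 8661 normalised reads in KO, against 10834 and 9062 in WT. The KO values enclosed the WT values, and in both genotypes the deeper library was the higher, by 1.43-fold in KO and 1.20-fold in WT. The ratio was 1.06 (1.04 to 1.08), and limma gave an interval from -0.65 to 0.77 on the log2 scale (adjusted p = 0.906). Ddx17 and Prkra were higher in the deeper than in the shallower library of both genotypes, while Drosha, Dgcr8, Xpo5 and Ddx5 were lower in the deeper library of both. The treatment of reads that could fit both paralogues is not given in the sources used here. Ddx17 also shares 4 exon bases with Kdelr3 on the opposite strand, which had 627 and 652 normalised reads in KO, against 1559 and 1724 in WT.

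**Figure D3:**
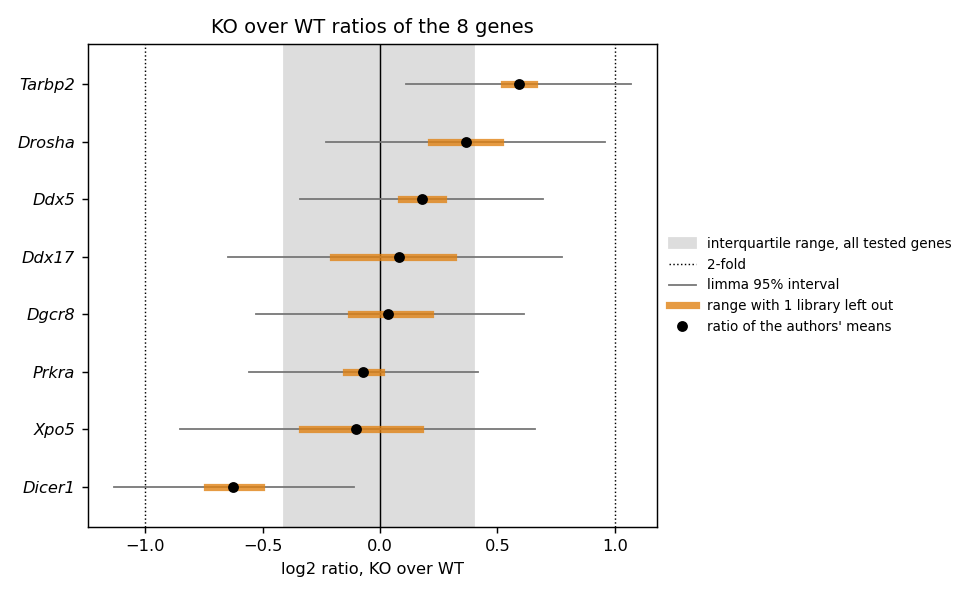
Log2 ratio of KO over WT for the 8 genes (horizontal axis; black point, ratio of the authors' means), the range with any 1 library left out (orange), the limma 95% interval (thin line), the interquartile range of all tested genes (grey, -0.41 to 0.40) and 2-fold (dotted). The orange ranges of Tarbp2, Drosha, Ddx5 and Dicer1 stay on 1 side of 0, and those of Ddx17, Dgcr8, Prkra and Xpo5 cross it.

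Levels can be set side by side only per transcript length, here per kb of the transcript with the longest coding sequence in GENCODE M21. Ddx5 stood highest, with 4164 and 4677 normalised reads per kb in KO and 3669 and 4153 in WT. Ddx17 followed with 2612 and 1830 in KO and 2289 and 1915 in WT, and Tarbp2 with 975 and 1066 in KO and 680 and 674 in WT. Drosha stood at 475 and 577 in KO and 369 and 448 in WT, and Xpo5 at 448 and 587 in KO and 460 and 652 in WT. These neighbours overlapped in KO, while in WT the highest Drosha value lay just below the lowest Xpo5 value. Dgcr8 (212 and 230 in KO, 191 and 241 in WT) and Prkra (154 and 147 in KO, 167 and 150 in WT) came next. Dicer1 was last in every library, at 58.2 and 56.6 normalised reads per kb in KO and 81.6 and 95.7 in WT. Per length, Drosha and the other RNase III gene thus stood far apart, and the highest Dgcr8 value lay below the lowest Drosha value.

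**Figure D4:**
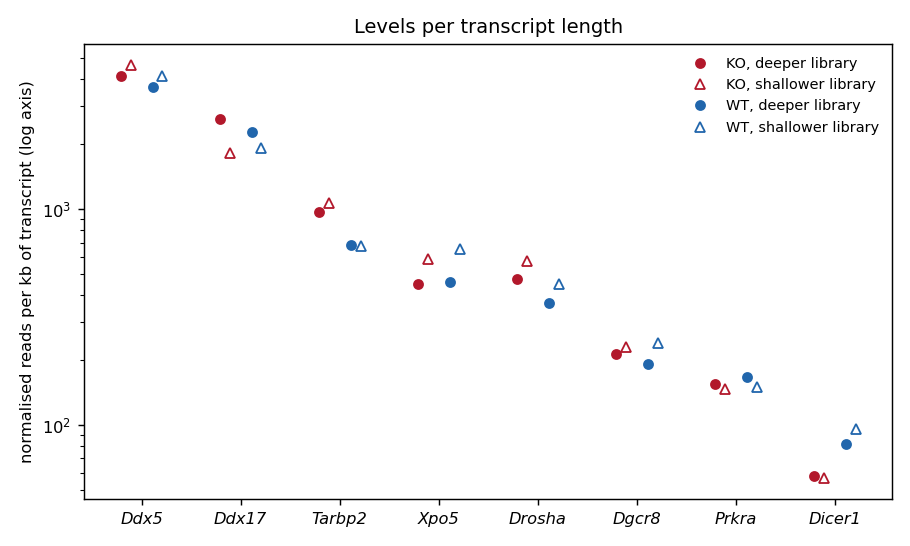
Normalised reads per kb of transcript (vertical log axis) of the 8 genes in each library, with KO in red left of WT in blue. Ddx5 is highest (3669 to 4677) and Dicer1 lowest (56.6 to 95.7) in every library.

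Matches to the seeds of 6 other microRNAs (miR-103, miR-17, miR-15a, miR-29a, miR-21a and miR-199a-3p) were counted in 3' UTRs, taking the longest one annotated for a gene. The miR-103 family, known to repress Dicer1 in mouse and human cells, had a match (ATGCTGC) in the 3' UTRs of Dicer1, Dgcr8 and Tarbp2, 3 of 8, where 11.2% of 20911 genes hold one. The set is shown because it holds the genes with the largest differences in each direction, so it was picked by the ratios given below. The 11.2% takes no account of 3' UTR length. The 3' UTR was longer than that of 92.4% of genes for Dicer1, 66.4% for Dgcr8 and 23.7% for Tarbp2. In coding sequences, Dicer1, Drosha, Tarbp2, Prkra and Ddx17 held a match to miR-103, where 19.2% of 21745 genes hold one. All these matches are descriptions of sequence, and the level of miR-103 was not measured.
miR-103-3p (chr2:131288103-131288125, plus strand): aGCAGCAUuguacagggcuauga
Dicer1 3' UTR site (chr12:104690169-104690191, minus strand): ctgatgcttcatgtaATGCTGCa
Dgcr8 3' UTR site (chr16:18254044-18254066, minus strand): cttatatgtacagtcATGCTGCa
Tarbp2 3' UTR site (chr15:102523569-102523591, plus strand): tggagtcctgaataaATGCTGCt
The ratios of these genes were 0.647 for Dicer1, 1.02 for Dgcr8 and 1.51 for Tarbp2. The Tarbp2 match overlaps by 6 bases one to miR-15a (TGCTGCT, 20.2% of genes), whose seed is shifted by 1 base. Xpo5 also held a match to miR-15a. Matches to miR-29a (TGGTGCT, 13.1% of genes) were found in Dicer1, Xpo5 and Prkra, and to miR-17 (GCACTTT, 11.7%) in Ddx5 and Ddx17. A match to miR-21a (ATAAGCT, 7.15%) was found in Ddx17, and none of the 8 held one to miR-199a-3p (ACTACTG, 7.70%). Drosha, with a 3' UTR of 169 bases, held none of the 7 there. Its coding sequence held a match to miR-103 and another to miR-17. Dicer1 held 1 coding match each to miR-103, miR-17 and miR-29a. Among coding sequences at least as long as that of Dicer1, 60.9%, 34.4% and 56.7% held at least 1 of these.

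Genes around the core were taken from lists of cofactors, export factors, precursor modifiers, other double-stranded RNA binding proteins, other DEAD-box helicases and Argonautes. Of 83 genes 78 were tested, and 1 was called higher, 2 lower and 75 neither, beside 17.5% of all tested genes called. Their median log2 ratio was -0.07.

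Of 15 cofactors of the Microprocessor, 0 were called, with a median log2 ratio of -0.16. Hnrnpa2b1, the gene with the most reads, which reads a mark on primary transcripts, had 19068 and 24882 normalised reads in KO, against 21860 and 25003 in WT. Of 13 genes for transport by Ran, 0 were called and the median was -0.24. Ran itself, the GTPase that Xpo5 needs, had 9489 and 14469 normalised reads in KO, against 14043 and 17700 in WT, with overlapping genotypes. Of 10 tested precursor modifiers, 0 were called and the median was 0.16. Tsn, which with Tsnax forms a nuclease that removes passenger strands, had 1630 and 1955 in KO, against 1803 and 1795 in WT. Tsnax had 1320 and 1451 in KO, against 1999 and 2141 in WT, a ratio of 0.669 that was not called (limma adjusted p = 0.143). Lin28a and Lin28b, which block let-7 maturation, and Trim71, a let-7 target of embryonic cells, had 0 reads in all 4 libraries. Of 28 other DEAD-box helicases, 0 were called and the median was 0.06. The gene with the most reads, the translation factor gene Eif4a1, had 14814 and 21668 in KO, against 16996 and 22113 in WT.

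Of 8 tested genes for other double-stranded RNA binding proteins, 1 was called lower and the other 7 were not called (median 0.28). Stau2, which binds structured RNA and carries it in neurons, had 15.6 and 36.8 normalised reads in KO, against 122 and 151 in WT. The KO values were far below the WT values, and Stau2 fell to a ratio of 0.192 (0.140 to 0.258), while limma gave an adjusted p of 0.0597. The authors' deposited table gave an adjusted p of 5.17e-04. It is a paralogue of Stau1, which had 2242 and 1917 in KO, against 1459 and 1286 in WT, and was not called. Son, the gene with the most reads in the list and a splicing cofactor, had 8510 and 8481 in KO, against 7567 and 7880 in WT. Among 4 Argonaute genes, which take over the product of Dicer, 1 was called higher and 1 lower. Eif2c2 (Ago2) had 5024 and 4223 in KO, against 1837 and 2021 in WT, with adjusted p of 0.00744 by the authors' deposited table and 0.0428 by limma. Eif2c4 (Ago4) had 19.3 and 10.9 in KO, against 87.7 and 42.6 in WT. It was called lower by size alone, with adjusted p of 0.173 by the authors' deposited table and 0.0919 by limma. Its KO mean of 15.1 was under 20, so it passed the filter on the mean of both genotypes only through its WT mean of 65.2, and its call supports nothing.

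**Figure D5:**
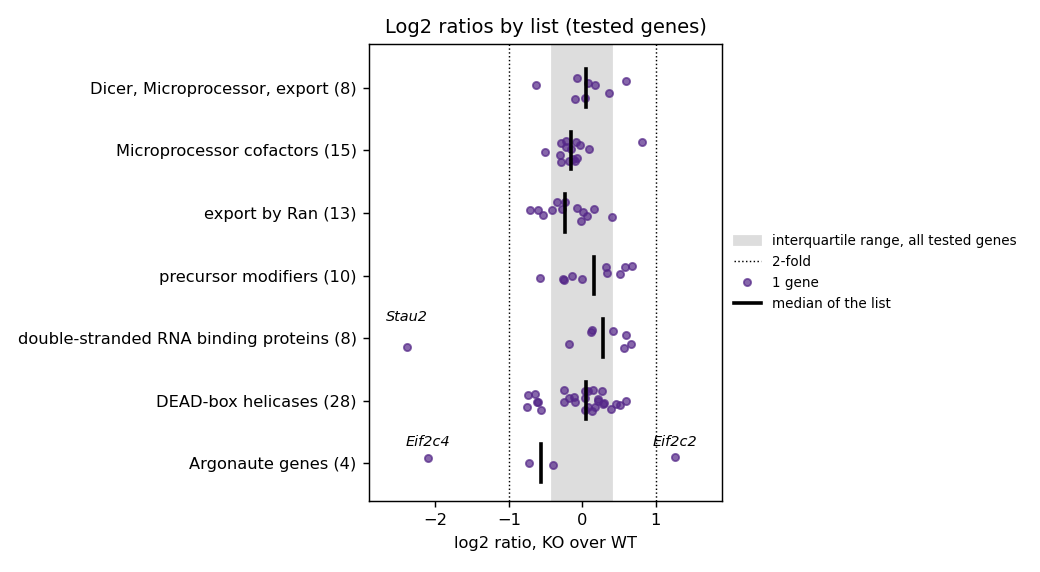
Log2 ratio of KO over WT (horizontal axis) of every tested gene by list, with the list's median as a bar, the interquartile range of all tested genes in grey and 2-fold dotted. Outside 2-fold lie Stau2, Eif2c4 and Eif2c2, and none of the 8 core genes.

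The genes whose profile over the 4 libraries lay nearest to that of Dicer1 were Vprbp, Srrm1 and Bicd2. The measure was the Euclidean distance of centred log2(normalised reads + 1) values, which was 0.02 for Vprbp, 0.04 for Srrm1 and 0.08 for Bicd2. Vprbp, part of a ubiquitin ligase, had 752 and 742 normalised reads in the deeper and the shallower KO library, against 1067 and 1260 in WT, a ratio of 0.642. The profile rests on 4 libraries, and the list is a description.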

How the data were processed

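PolyA RNA was prepared with TruSeq and sequenced as paired 50-base reads, per the labels' protocols. TopHat 1.4.0, DESeq 1.10.1 and mm9 are named without role in the submitters' processing notes. Which counter and annotation were used is not given in the sources used here. The authors deposited 1 table: a mean signal per gene and genotype (reads divided by DESeq size factors), the KO over WT ratio, its log2 value, p-values and adjusted p-values. Conditions A and B were taken to be WT and KO by the name order of the comparison's title, and every direction rests on that.

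Each mean was solved for whole reads of 2 libraries, and 100% of the 16350 KO and 16386 WT genes above 0 had exactly 1 solution (relative residual at most 6e-15). The size factors recomputed from these reads matched the steps. Genes with a mean of at least 20 normalised reads (11710) were tested. The limits of a counting interval are exact (95%). limma 3.58.1 (R 4.3.3) was run on log2(normalised reads + 1) with Benjamini-Hochberg adjustment over all tested genes. The recovery, call rule and limma were also run on simulated data with the same dispersion for every gene, and the outcome is not given here. The fold rule was planned for 1 library per genotype. Gene models and UTRs are from GENCODE M21 (GRCm38), not the authors' build. Named genes were the 8 members, every called gene of a list, its gene with the most reads and the 3 nearest to Dicer1; Stau1, Tsnax and the genes at 0 reads were added after their values were seen. One planned marker gene is not reported here. The genes and lists were chosen with earlier results of these data known.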

Additional observations from a re-analysis of the deposited data

How the results depend on the processing

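None of the 8 genes was called under any scaling, filter or pseudocount tried, with any 1 library left out, or with limma. The ratio of Dicer1 was 0.599 to 0.703 with 1 library left out, and 0.713 between the deeper and 0.591 between the shallower libraries. At 1.5-fold, Dicer1 (0.647) was called lower and Tarbp2 higher, 1 gene each way. The median log2 ratio of the 8 was 0.03 to 0.19 with 1 library left out. For 4 genes the direction turned: leaving out 1 library gave 0.918 to 1.16 for Dgcr8, 0.794 to 1.12 for Xpo5, 0.871 to 1.24 for Ddx17 and 0.904 to 1.00 for Prkra. Dgcr8 was also at 0.991 with upper-quartile scaling and 0.955 between the shallower libraries, and Ddx17 at 0.956 between the shallower libraries. Of the surrounding genes, 1 was higher throughout except for 6 at 1.5-fold and 2 between the deeper libraries, where Taf15 joined. The number lower was 10 at 1.5-fold, 0 at a minimum mean of 100 reads (Stau2 and Eif2c4 left the test), 1 by the authors' adjusted p (Eif2c4 lost) and 2 to 6 with 1 library left out. By limma at an adjusted p under 0.05, 1 of the surrounding genes was higher and 0 were lower. Erh, Rcc1, Ddx21 and Ddx46 joined without the shallower KO library (6 lower), and Ddx21 without the deeper WT library (3 lower). The cause was not tested.

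No paired analysis was possible because the labels number no replicates. A limma fit chosen after seeing the data, with the rank of the library total as a block, called 22.4% of tested genes and 0 of the 8, at a Dicer1 ratio of 0.649. Its adjusted p was 0.0661 for Dicer1, 0.0615 for Tarbp2 and 0.129 for Drosha, against 0.137, 0.134 and 0.354 without the block. With 2 libraries a genotype, the limma 95% intervals of 6 of the 8 genes included 0.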

Other observations

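Beside Dgcr8, 2 of the genes harbour microRNA hairpins with rows of their own in the table. Mir3064 lies in Ddx5, in exons of its non-coding transcripts, and had 66.2 and 62.7 normalised reads in the deeper and the shallower KO library, against 65.5 and 44.8 in WT. The genotypes overlapped, at a ratio of 1.17 (counting interval 0.900 to 1.52). All 67 bases of this hairpin lie in Ddx5 exons on the same strand. Its reads thus cannot be told apart from those of Ddx5 transcripts and are not a level of the microRNA. Mir693, in an intron of Xpo5, had 1 read in the deeper KO library and 0 reads in the other KO library and in both WT libraries.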
